A study of Mus musculus with 38 samples.

Results

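RNA levels in kidney tumours of VIM mice were compared with those in kidney tumours of VM mice, a pair of genotypes that differ in the labels by the deletion of Ink4a/Arf. The members are the 3 VIM tumour libraries (mice 3237, 3233 and 3130) and the 3 VM tumour libraries (mice 3115, 3055 and 2459), 6 of the 38 libraries of the series, and they were chosen by genotype and source in the sample labels. VM tumours have the genotype Vhl-/-; MYC + and VIM tumours have Vhl-/-; MYC +; Ink-/-/Arf-/-, and all 6 mice were kept on doxycycline (Dox). In both genotypes Vhl was removed by a tamoxifen-inducible Cre, and MYC was switched on by Dox through rtTA, each under the kidney-specific cadherin (Ksp) promoter that is active in tubule epithelium. The Ink4a/Arf deletion, in contrast, was in the germline, so that the stroma, vessels and immune cells of a VIM mouse lack it as well as the tumour cells. Each library is 1 piece of tumour tissue from 1 mouse, and ages of these mice are not given in the sources used here. The study reports shorter survival of VIM than of VM mice, so that time on Dox may differ between the groups. For reference, 5 libraries of normal kidney from wild-type mice given vehicle, 3 libraries of MYC tumours from 2 mice (2917 and 2983), and 4 libraries each of VIM and VM tumour cells in culture with Dox are cited where they bear on a gene. The titles mark 2 of the normal kidneys as B6 and 3 as KT, a difference that the other labels do not explain. One KT library stood apart from the other 4, with 233226 units of Kap against 813562 to 1234950 and 6278 units of Cyp2e1 against 58472 to 73171, so that the normal kidney means are a coarse reference. The VIM cells and the VM cells are 1 line each, VIM-3039 and VM-3055, and the second carries the number of the mouse of VM tumour 3055.

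The locus removed in VIM mice is Cdkn2a, which encodes 2 proteins from overlapping reading frames. p16INK4a inhibits the cyclin D-dependent kinases and thereby keeps the retinoblastoma protein active, and p19ARF binds MDM2 and so protects p53 from degradation. VHL is the substrate receptor of the ubiquitin ligase that marks the hypoxia-inducible factors (HIF) for destruction, and its loss is the hallmark of clear cell renal carcinoma. MYC drives ribosome synthesis and entry into the cell cycle, and it is one of the known triggers of ARF.

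Levels are given in units of the deposited table, in which each library has an upper quartile of about 1000. The 6 libraries hold 8215703 to 13556151 estimated reads, and 3 reads, used as the floor of detection, correspond to 3.09 to 5.65 units. Across genes, libraries of one genotype correlated at r = 0.914 to 0.958 and those of different genotypes at 0.904 to 0.930, and genes are not independent replicates. The first principal component (36.71% of the variance) placed all VIM tumours on one side and all VM tumours on the other. The second (23.26%) set VIM tumour 3130 apart at −88.81, with the other 5 libraries between −42.99 and 59.79. The tumours also differed in marker genes of nephron, blood and fat cells, and which cells held these messages was not tested. VIM 3233 had the highest level of each of the 6 distal nephron genes cited below. VIM 3130 and VM 3115 had the highest levels of haemoglobin (Hba-a2 362, 585 and 4505 units in VIM and 4304, 477 and 503 in VM tumours). The adipocyte protease gene Cfd had 899 units in VIM 3130. Kidney cadherin Cdh16, the marker of the tubule lineage in which the transgenes are active, was high in each tumour, between 6526 and 14725 units.

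A gene was said to pass, and to be higher or lower, with an adjusted p under 0.05 from limma and a difference over 1 on the log2(units + 1) scale, VIM minus VM. Of 15411 genes tested 42 passed, which is 0.273%, with 30 higher (0.195%) and 12 lower (0.0779%) in VIM tumours. For each of the 42 the 3 VIM values lay on one side of the 3 VM values, as they did for 10.1% of all tested genes in the direction higher in VIM and for 6.36% in the direction lower in VIM. With 3 against 3 libraries an exact permutation test of a single gene cannot go below p = 0.10, so each call rests on the variance that limma shares among genes. The calls were few for the size of many differences, and 1795 genes (11.6%) had an unadjusted p under 0.05. The count moved with single libraries. It was 2 without VIM 3237, 3 without VIM 3233, 43 without VIM 3130, 19 without VM 3115, 13 without VM 3055 and 7 without VM 2459. Cdkn2a and Kif26a were the 2 genes that passed in each of these 6 fits. With quantile scaling in place of the authors' scaling 28 passed, 16 higher and 12 lower.

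Cdkn2a itself, read first as a check of the labels, was at 33.9, 30.1 and 95.5 units in VIM and 4298, 4347 and 3392 units in VM tumours. All VM tumours were high and all VIM tumours were low, 75.5-fold apart on the means (log2 difference −6.40 ± 0.44 (SE), adjusted p = 0.0024). The gene lies at chr4:88920377-88940557 (mm9, minus strand, 6 annotated exons), and the table does not separate the Ink4a and Arf transcripts or say which exons gave the remaining reads. In normal kidney it had 1.37 ± 1.56 units (SD, n = 5). Both groups were above this level, the VM tumours by far more than the VIM tumours. The MYC tumours had 108 and 1466 units in mice 2917 and 2983.

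Myc had 397, 476 and 339.6 units in VIM and 409, 462 and 801 units in VM tumours, with overlapping groups and a log2 difference of −0.41 (adjusted p = 0.70), against 66.9 ± 30.7 units in normal kidney. Whether reads of the MYC transgene are counted in this value is not stated in the sources used here. Vhl had 226, 219 and 312 units in VIM and 79.9, 40.2 and 40.7 units in VM tumours. Every VIM tumour was above every VM tumour, and all 6 were below the normal kidney mean of 686 ± 69 units, but the difference did not pass (log2 difference 2.27 ± 0.47 (SE), adjusted p = 0.13). From which cells or exons the remaining Vhl reads come cannot be told from the gene value.

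**Figure D1:**
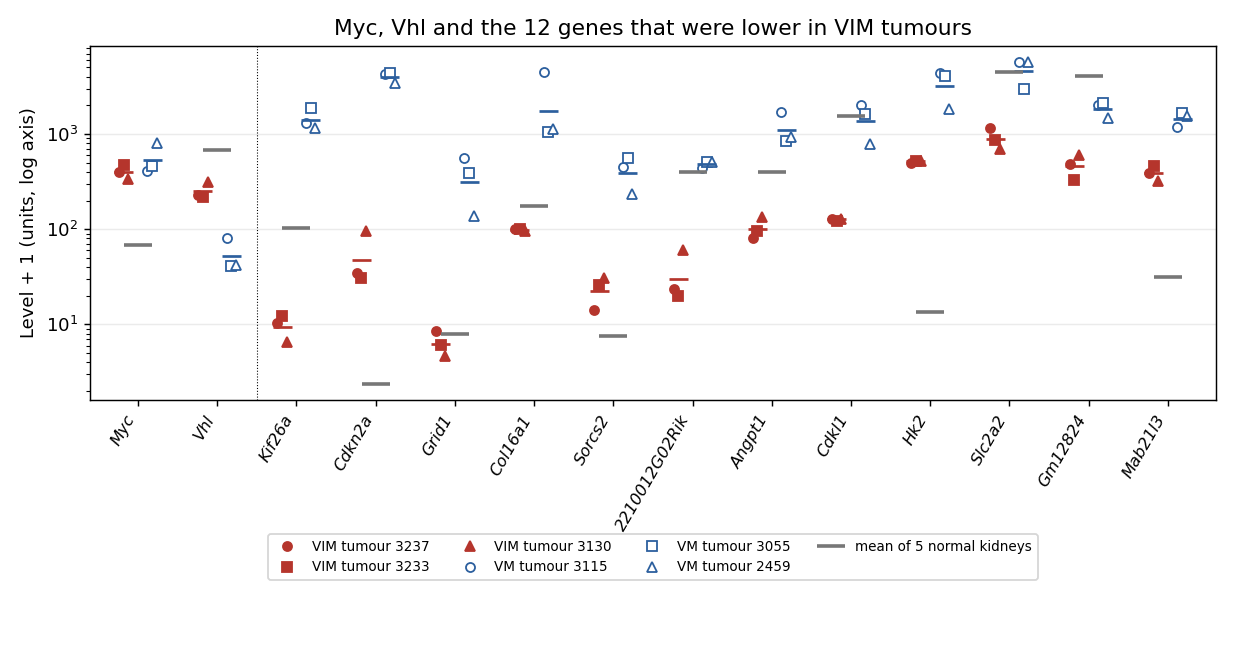
Level plus 1 (units, log axis) of Myc, Vhl and the 12 genes that were lower in VIM tumours, 1 point per tumour, with short lines at the group means of log values and grey lines at the mean of 5 normal kidneys. For each of the 12 genes the 3 filled VIM points sit under the 3 open VM points, and Cdkn2a is at most 95.5 units in VIM and at least 3392 in VM tumours.

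Of the other 11 genes that were lower in VIM tumours, several encode receptors, secreted proteins or proteins of glucose handling. Kif26a, an unconventional kinesin, had 9.42, 11.3 and 5.51 units in VIM and 1292, 1865 and 1148 units in VM tumours. It had the largest difference in this direction, 164-fold on the means (log2 difference −7.22 ± 0.47 (SE), adjusted p = 0.0024), and lies on chromosome 12, away from the deleted locus. Grid1, a delta-type glutamate receptor subunit whose gene holds the microRNA Mir346, had 7.53, 5.01 and 3.67 units in VIM and 562, 392 and 138 units in VM tumours (log2 difference −5.66 ± 0.69 (SE), adjusted p = 0.031). Sorcs2, a sorting receptor of the sortilin family, had 13.2, 25.1 and 29.4 units in VIM and 447, 563 and 232 units in VM tumours (log2 difference −4.12 ± 0.55 (SE), adjusted p = 0.035). In normal kidney Kif26a had 102 ± 30.9, Grid1 7.01 ± 2.31 and Sorcs2 6.48 ± 7.04 units. For Grid1 and Sorcs2 the VM tumours were further from normal tissue than the VIM tumours. For Kif26a the normal kidney mean lay between the VIM and the VM tumours.

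Among secreted proteins, Angpt1, the ligand that activates the endothelial receptor Tie2, had 79.1, 94 and 132 units in VIM and 1686, 834 and 928 units in VM tumours. VM tumours held 11.3-fold more (log2 difference −3.45 ± 0.38 (SE), adjusted p = 0.025), and normal kidney had 399 ± 136 units, between the 2 groups. Its receptor gene Tek had 18.8, 51.4 and 116 units in VIM and 32, 7.22 and 28.4 units in VM tumours, with overlapping groups. Col16a1, a fibril-associated collagen, had 99.8, 100.3 and 93.6 units in VIM and 4477, 1059.8 and 1119.6 units in VM tumours (log2 difference −4.14 ± 0.53 (SE), adjusted p = 0.032), a narrow range in VIM tumours and a spread in VM tumours that was set by VM 3115. In bulk tissue, fewer cells of a type and less RNA per cell cannot be told apart for these or any other genes here. VM 3115 also had the highest levels of several vessel and matrix genes, such as the endothelial marker Pecam1 and the matrix protein gene Postn. Pecam1 had 132, 217 and 255 units in VIM and 598, 91.8 and 148 units in VM tumours. Postn had 90.4, 76.4 and 226 units in VIM and 5149, 96.9 and 83.8 units in VM tumours. Their part in the results for Angpt1 and Col16a1 was not tested.

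Genes of glucose handling were the next kind. Hk2 encodes hexokinase 2, which traps glucose in the cell at the entry to glycolysis and is a textbook target of both HIF and MYC. It had 495, 524 and 525 units in VIM and 4325, 4108 and 1821 units in VM tumours, 6.64-fold lower in VIM on the means (log2 difference −2.63 ± 0.34 (SE), adjusted p = 0.032). The 3 VIM values lay close together while VM 2459 was well under the other VM tumours, and all 6 tumours were far above the 12.5 ± 1.36 units of normal kidney. Slc2a2, the GLUT2 transporter of proximal tubule and liver, had 1153, 858 and 692 units in VIM and 5687, 2961 and 5703 units in VM tumours (log2 difference −2.38 ± 0.33 (SE), adjusted p = 0.035). Its level in VM tumours was close to the 4459 ± 651 units of normal kidney. Cdkl1, a kinase related to the cyclin-dependent kinases, had 128, 122 and 128 units in VIM and 1993, 1605 and 779 units in VM tumours (log2 difference −3.42 ± 0.38 (SE), adjusted p = 0.025). The remaining 3 genes were 2210012G02Rik (33.4 ± 22 against 485 ± 39.3 units, VIM and VM, SD, n = 3 each), Gm12824 (472 ± 136 against 1872 ± 349) and Mab21l3 (389 ± 71.6 against 1466 ± 258).

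The promoters of Hk2 and Lin28b (described below) are shown as examples of 2 motifs, and both genes were chosen after their values were seen. They run from 250 bases before to 50 bases after the RefSeq start, on the strand of the gene, in the assembly GRCm38.p6. Hk2 lies at chr6:82774405-82774704 and Lin28b at chr10:45470152-45470451, both on the minus strand. Capitals mark the letters ACGTG, the core of the hypoxia response element, read on either strand.
Hk2: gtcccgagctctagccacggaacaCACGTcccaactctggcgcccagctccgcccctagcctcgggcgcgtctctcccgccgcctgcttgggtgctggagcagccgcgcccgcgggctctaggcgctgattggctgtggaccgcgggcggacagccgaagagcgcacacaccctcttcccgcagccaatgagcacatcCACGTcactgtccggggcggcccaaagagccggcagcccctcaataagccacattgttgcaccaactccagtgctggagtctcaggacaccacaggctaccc
Lin28b: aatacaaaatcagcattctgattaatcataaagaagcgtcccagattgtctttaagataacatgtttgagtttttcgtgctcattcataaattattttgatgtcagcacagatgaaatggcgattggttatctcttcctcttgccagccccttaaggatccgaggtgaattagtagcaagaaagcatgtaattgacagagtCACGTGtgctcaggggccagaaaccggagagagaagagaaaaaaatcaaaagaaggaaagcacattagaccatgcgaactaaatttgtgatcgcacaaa
The Hk2 promoter has 2 such matches and a GC content of 67.3%. In Lin28b (39.0% GC) the capitals form 1 CACGTG, the E-box bound by MYC and related factors, which reads as ACGTG on both strands, so that 1 place gives both matches. Of the 10801 tested genes matched to a RefSeq promoter 24.35% held ACGTG and 9.8% held CACGTG. Of the 28 passing genes that could be matched, 9 held the first motif and 2 held the second (Lin28b and Snhg9). These counts describe letters in a window, not sites in use.

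On the rest of the glycolysis list no other gene passed. Of its 22 genes 1 passed, lower in VIM, and 4 had an unadjusted p under 0.05 in that direction (4.2% of all genes). The median log2 difference was −0.18 against 0.08 over all genes tested. List medians moved with single libraries, and over the 6 fits that each leave out 1 tumour this one ran from −0.42 to −0.07. Ranges given beside the medians below are of the same kind. Groups did not overlap for 6 genes, with VIM tumours below VM tumours in each (6.36% of all genes were so). Of these, the phosphofructokinase gene Pfkl had 2426, 2648 and 2603 units in VIM and 5083, 7536 and 4176 units in VM tumours (log2 difference −1.09 ± 0.27 (SE), adjusted p = 0.16). The lactate and pyruvate exporter Slc16a3 (MCT4) had 3512, 1729 and 3142 units in VIM and 6700.1, 6833 and 6297 units in VM tumours (log2 difference −1.31 ± 0.30 (SE), adjusted p = 0.15). Its relative Slc16a1 (MCT1) had 3038, 3000.0 and 2675 units in VIM and 6381, 4201 and 4826 units in VM tumours (log2 difference −0.80 ± 0.24 (SE), adjusted p = 0.25). The glucose transporter Slc2a1 had 2412, 1792 and 1683 units in VIM and 2013, 2976 and 3039 units in VM tumours, with overlapping groups. Lactate dehydrogenase Ldha, at the end of the pathway, had 50589.5, 30792 and 69926 units in VIM and 48783, 47995 and 48090.0 units in VM tumours, and its VIM values spanned the VM values.

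HIF targets, a list of which 28 genes were tested, had 0 passing genes and a median of −0.31 (−0.48 to −0.18). An unadjusted p under 0.05 was found for 3 of them, lower in VIM (4.2% of all genes were so). Groups did not overlap for 3 genes in that direction (6.36% of all genes). Pfkfb3, which makes the activator of phosphofructokinase, had 697, 791 and 710.4 units in VIM and 1627, 2513 and 1322 units in VM tumours (log2 difference −1.26 ± 0.28 (SE), adjusted p = 0.14). The transcription repressor Bhlhe40 had 1746, 1437 and 1235 units in VIM and 3166, 2233 and 2736 units in VM tumours (log2 difference −0.88 ± 0.24 (SE), adjusted p = 0.20). The groups overlapped for the classical targets. Vegfa, the angiogenic growth factor, had 1809.8, 1594 and 2858 units in VIM and 2239.7, 2680.4 and 2634 units in VM tumours. Ndrg1 had 82714, 47048 and 110403 units in VIM and 70237, 68262 and 47164 units in VM tumours. Carbonic anhydrase Car9 differed by more within groups than between them, with 213, 95.2 and 1355 units in VIM and 46.6, 1652 and 43.2 units in VM tumours. Of the HIF pathway itself, Hif1a had 1043, 1889 and 1281 units in VIM and 1073, 1189 and 941 units in VM tumours. Epas1, which encodes HIF-2alpha, had 164, 461 and 117 units in VIM and 405, 46.4 and 59.2 units in VM tumours. Egln1, the prolyl hydroxylase that hands HIF to VHL and is itself a HIF target, had 2039.5, 1446 and 1931 units in VIM and 3828, 2876 and 2768 units in VM tumours (log2 difference −0.81 ± 0.24 (SE), adjusted p = 0.25).

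On the list of lipid storage and fatty acid oxidation the differences lay mostly in the other direction. Lpl, the lipase that frees fatty acids from circulating lipoproteins, had 1514, 2292 and 2911 units in VIM and 253, 415 and 509 units in VM tumours and was 5.7-fold higher in VIM (log2 difference 2.52 ± 0.35 (SE), adjusted p = 0.035), with 25718 ± 9954 units in normal kidney. It was the 1 gene of 25 on the list to pass, but 12 genes of the list had an unadjusted p under 0.05 in that direction (7.44% of all genes). VIM tumours were all above VM tumours for 10 genes (10.1% of all genes). The median was 0.59 (0.53 to 0.71). The fatty acid receptor Cd36 had 1456, 1187 and 16606 units in VIM and 104, 138 and 139 units in VM tumours (log2 difference 4.59 ± 0.88 (SE), adjusted p = 0.11), with VIM 3130 far above the rest. Proteins of the lipid droplet surface were next. Plin5 had 168, 221 and 91.8 units in VIM and 22.6, 6.19 and 24.7 units in VM tumours (log2 difference 3.21 ± 0.70 (SE), adjusted p = 0.14). Plin4 had 73.4, 85.2 and 154 units in VIM and 22.6, 15.5 and 13.6 units in VM tumours (log2 difference 2.49 ± 0.58 (SE), adjusted p = 0.15). The droplet fusion protein Cidec had 69.7, 81.5 and 20.2 units in VIM and 5.33, 2.06 and 3.7 units in VM tumours (log2 difference 3.47 ± 0.76 (SE), adjusted p = 0.14). Each was low in VM tumours. The mitochondrial fatty acid importer Cpt1b had 397, 987 and 408 units in VIM and 212, 17.5 and 23.4 units in VM tumours (log2 difference 3.57 ± 0.90 (SE), adjusted p = 0.17). These droplet and import genes were separated between groups in each tumour, though none of the 5 passed. G0s2, an inhibitor of the lipase ATGL, lay on the other side with 26.4, 58.9 and 16.5 units in VIM and 364, 124 and 253 units in VM tumours (log2 difference −2.88 ± 0.65 (SE), adjusted p = 0.14). Plin2, the most general droplet protein, had 861, 1339.6 and 829.7 units in VIM and 1575, 713 and 1032 units in VM tumours, with overlapping groups. The adipocyte markers Adipoq and Cfd were high in VIM 3130 and next in VM 3115 (Adipoq 1.88, 0 and 82.6 units in VIM and 14.6, 1.03 and 2.47 units in VM tumours) and at or under the floor in the other 4 tumours. Cholesterol and fatty acid synthesis had 0 of 21 genes passing, 1 with an unadjusted p under 0.05, lower in VIM, and a median of −0.28 (−0.46 to −0.08).

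**Figure D2:**
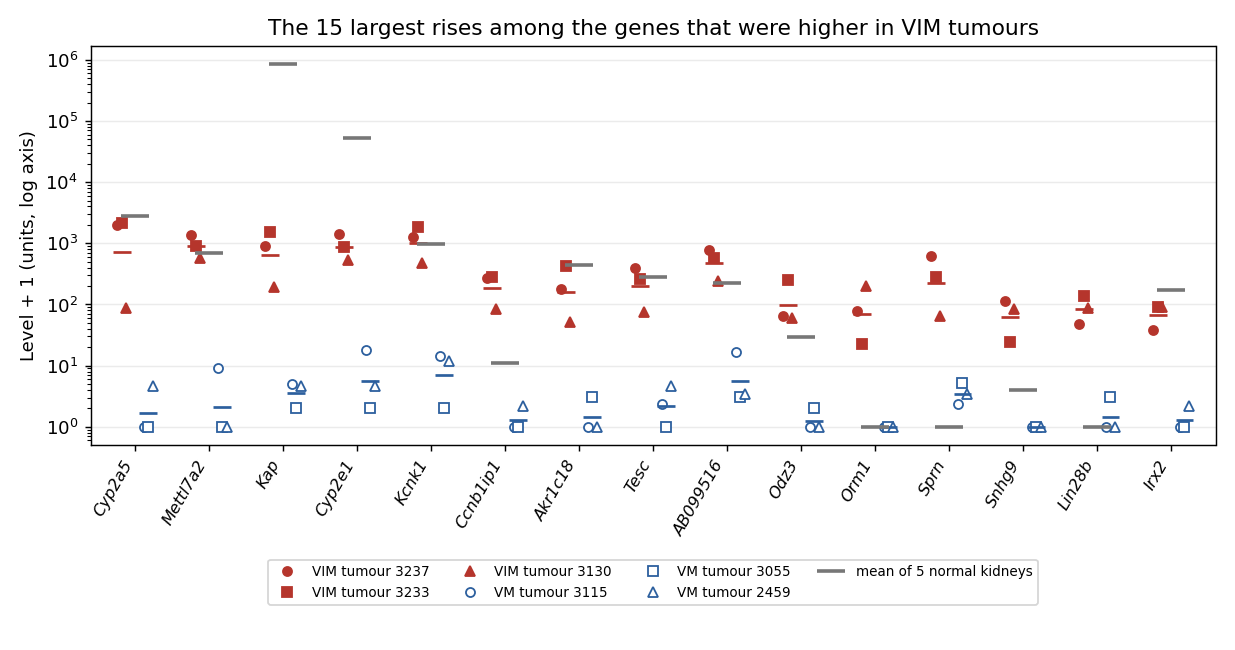
Level plus 1 (units, log axis) of the 15 genes with the largest rises in VIM tumours among passing genes with a VIM mean of at least 50 units, 1 point per tumour, with short lines at the group means of log values and grey lines at the mean of 5 normal kidneys. All VM points lie at or under 17.3 units, and normal kidney ranges from 0 for Orm1, Sprn and Lin28b to 849845 units for Kap.

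The 30 genes that were higher in VIM tumours were, for the most part, barely detected in VM tumours. In 14 of them all 3 VM tumours were at or under the floor of 3 reads. For these the ratio of means has an exact Poisson 95% interval on the VM reads, which covers counting error only, and where all VM tumours were at 0 the fold is a lower bound against the floor of 3 reads per library. Of the 30 genes 23 were higher in normal kidney than in VM tumours, beside 48% of all genes tested. Of these, 12 were also higher in normal kidney than in VIM tumours, near the 39.8% of all genes. The 30 had been selected for low values in the same VM tumours and high values in the same VIM tumours, so that neither count is independent evidence. Kap, Cyp2e1 and Atp6v0d2 were the 3 that stand on the lists of nephron genes. Kap, the androgen-regulated protein of proximal tubule that is among the most abundant kidney messages, had 904, 1516 and 193 units in VIM and 4, 1.03 and 3.7 units in VM tumours. VIM tumours held 299-fold (95% interval 145 to 745) more (log2 difference 7.47 ± 0.85 (SE), adjusted p = 0.025), yet they reached at most 0.178% of the normal kidney mean. Kap depends on androgen, and the Y-linked helicase gene Ddx3y had 1878, 1257 and 3238 units in VIM and 1027, 985 and 1001 units in VM tumours, so that reads of the Y chromosome were present in all 6. Cyp2e1, the ethanol-inducible cytochrome P450, had 1394, 872 and 523 units in VIM and 17.3, 1.03 and 3.7 units in VM tumours (log2 difference 7.27 ± 0.84 (SE), adjusted p = 0.025) against 52426 ± 26411 units in normal kidney. Cyp2a5 had 2013, 2174 and 86.3 units in VIM and 0, 0 and 3.7 units in VM tumours (log2 difference 8.76 ± 1.29 (SE), adjusted p = 0.046). Mettl7a2 had 1379.5, 903 and 583 units in VIM and 7.99, 0 and 0 units in VM tumours (log2 difference 8.76 ± 0.93 (SE), adjusted p = 0.025). These were the largest log2 differences of the 42, and both genes belong to families of near-identical genes among which reads may have been split. The same uncertainty holds for Akr1c18, Orm1, Serpina3h, Ifi202b, Sult1a1 and Tmem181a.

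Membrane and transport genes formed a further group. Kcnk1, a potassium channel of the background leak type, had 1254, 1813 and 479 units in VIM and 13.3, 1.03 and 11.1 units in VM tumours (log2 difference 7.19 ± 0.86 (SE), adjusted p = 0.03). Normal kidney had 447 to 701 units in 4 libraries and 2762 in the KT library that stood apart. Kcnt1, a sodium-activated potassium channel, had 129.9, 223 and 176 units in VIM and 4, 2.06 and 3.7 units in VM tumours (log2 difference 5.38 ± 0.60 (SE), adjusted p = 0.025). Atp6v0d2, a subunit of the vacuolar proton pump found in intercalated cells, had 565, 748 and 424 units in VIM and 49.3, 105 and 85.1 units in VM tumours (log2 difference 2.87 ± 0.42 (SE), adjusted p = 0.046). Normal kidney had 864 ± 232 units, so that VIM 3233 was close to normal. Wfdc2, a secreted protease inhibitor of epithelia also known as HE4, had 2608, 2308 and 3229 units in VIM and 289, 357 and 385 units in VM tumours. The difference was 7.91-fold with little spread on either side (log2 difference 2.98 ± 0.24 (SE), adjusted p = 0.0057). Normal kidney averaged 2606 ± 1385 units, with 1419 to 2244 units in 4 libraries and 5008 in the KT library that stood apart. All VIM tumours were above those 4 libraries. Prodh, the mitochondrial enzyme that opens proline breakdown and is a known p53 target, had 2710.0, 2702 and 2915 units in VIM and 854, 753 and 848 units in VM tumours (log2 difference 1.76 ± 0.20 (SE), adjusted p = 0.025). Pde4c, a phosphodiesterase that degrades cyclic AMP, had 1232, 1178 and 777 units in VIM and 224, 75.3 and 61.7 units in VM tumours (log2 difference 3.35 ± 0.50 (SE), adjusted p = 0.048). Pm20d1, a secreted enzyme that joins fatty acids to amino acids, had 697, 1079 and 453 units in VIM and 108, 32 and 45.6 units in VM tumours (log2 difference 3.67 ± 0.54 (SE), adjusted p = 0.046).

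Regulators and developmental genes were the last group. Lin28b, the RNA-binding protein that blocks maturation of the let-7 microRNAs and is active in fetal tissue, had 47.1, 137 and 86.3 units in VIM and 0, 2.06 and 0 units in VM tumours. It was listed at 0 in all 5 normal kidneys, and VIM tumours held 131-fold (95% interval 36.2 to 1081) more than VM tumours (log2 difference 5.84 ± 0.77 (SE), adjusted p = 0.034). The MYC tumours had 0 and 57.7 units in mice 2917 and 2983. Of the 17 tested genes of the imprinted and fetal growth list it was the 1 that passed, and the list median was 0.33 (0.22 to 0.77). H19, the imprinted RNA that is repressed after birth, had 11.3, 10 and 40.4 units in VIM and 1088, 7.22 and 69.1 units in VM tumours, with VM 3115 standing alone. The homeobox gene Irx2 had 37.7, 89 and 90 units in VIM and 0, 0 and 1.23 units in VM tumours, 176-fold (95% interval 31.5 to 6938) higher in VIM (log2 difference 5.70 ± 0.72 (SE), adjusted p = 0.032). Ccnb1ip1, a ubiquitin ligase known from meiotic crossing over, had 266, 281 and 84.4 units in VIM and 0, 0 and 1.23 units in VM tumours, 512-fold (95% interval 91.8 to 20203) higher (log2 difference 7.15 ± 0.76 (SE), adjusted p = 0.025). Odz3, which encodes teneurin 3, had 64, 249 and 58.7 units in VIM and 0, 1.03 and 0 units in VM tumours, 361-fold (95% interval 64.8 to 14258) higher (log2 difference 6.29 ± 0.80 (SE), adjusted p = 0.032). The snoRNA host gene Snhg9 had 115, 23.8 and 82.6 units in VIM and 0 in all VM tumours, at least 20.5-fold higher (log2 difference 5.96 ± 0.77 (SE), adjusted p = 0.032), and it overlaps Snora78 on its strand and Rps2 on the other. Of the 42 passing genes 3 overlap an annotated gene on the same strand and 11 one on the other strand, and whether the counting used strand is not stated in the sources used here.

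Smaller but even differences closed the list. Cytip, which binds cytohesin 1 in leukocytes, had 1565, 1510.0 and 1768 units in VIM and 549.9, 580.4 and 576 units in VM tumours (log2 difference 1.5 ± 0.21 (SE), adjusted p = 0.035). Tmem20 had 4259.9, 3388 and 3187 units in VIM and 1329, 1147 and 1184 units in VM tumours (log2 difference 1.56 ± 0.22 (SE), adjusted p = 0.035). Their log2 differences of 1.5 and 1.56 were the smallest among the 42. The other 11 genes that were higher in VIM, among them the acute phase protein Orm1, the prion-like protein Sprn, the calcium-binding protein Tesc and the sulphotransferase Sult1a1, had log2 differences from 3.81 to 6.77.

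Nephron markers were examined as whole lists, since several of the genes above belong to differentiated tubule. Of 23 proximal tubule genes 2 passed, both higher in VIM (Kap and Cyp2e1), and 8 had VIM tumours all above VM tumours (10.1% of all genes). The median was 1.25. It was 0.61 without VIM 3233 and 2.51 without VIM 3130, the lowest and the highest of the 6 fits. Cyp4b1, a cytochrome P450, had 727, 1020.0 and 1476 units in VIM and 93.2, 43.3 and 264 units in VM tumours (log2 difference 3.32 ± 0.62 (SE), adjusted p = 0.097). The water channel Aqp1 had 849, 1016 and 251 units in VIM and 190.4, 134 and 44.4 units in VM tumours (log2 difference 2.51 ± 0.68 (SE), adjusted p = 0.20). G6pc, which releases glucose at the end of gluconeogenesis, had 229.8, 487 and 23.9 units in VIM and 2.66, 10.3 and 7.4 units in VM tumours (log2 difference 4.33 ± 1.10 (SE), adjusted p = 0.18). The phosphate transporter Slc34a1, in contrast, had 441, 881 and 90 units in VIM and 212, 1605 and 2051 units in VM tumours, with VM 3055 and VM 2459 above all VIM tumours. Summed over the list, VIM tumours were at 2.72% to 3.89% of normal kidney and VM tumours at 1.79% to 2.73%, so that the summed level was low in both genotypes. The sum is weighted to the most abundant genes. Of a mean sum of 1844162 units in normal kidney, Kap alone had 233226 to 1234950 in single libraries.

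For 16 tested genes of the loop, distal tubule and collecting duct the median was 2.74. It was 1.0 without VIM 3233 and 3.08 without VIM 3130, again the lowest and the highest. The 1 gene that passed was Atp6v0d2, higher in VIM. Umod, the uromodulin of the thick ascending limb, had 109, 3228 and 34.9 units in VIM and 0, 1.03 and 0 units in VM tumours (log2 difference 7.53 ± 1.49 (SE), adjusted p = 0.12). The potassium channel Kcnj1 had 18.8, 299 and 9.18 units in VIM and 0 in all VM tumours (log2 difference 5.30 ± 1.20 (SE), adjusted p = 0.14). In both, VIM 3233 was far above the other VIM tumours, as it was for the transporters Slc12a1 and Slc12a3 and the water channel Aqp2. Slc12a1, the target of loop diuretics, had 39.5, 931 and 9.18 units in VIM and 4, 12.4 and 1.23 units in VM tumours. Slc12a3, the target of thiazides, had 9.42, 899.7 and 14.7 units in VIM and 1.33, 0 and 1.23 units in VM tumours. Aqp2 had 0, 464 and 7.34 units in VIM and 0 in all VM tumours. The summed list stood at 9.99% of normal kidney in VIM 3233, against 1.59% to 2.71% in the other VIM and 1.71% to 2.84% in the VM tumours. The part of remaining normal tubule in the results of VIM 3233 was not tested.

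**Figure D3:**
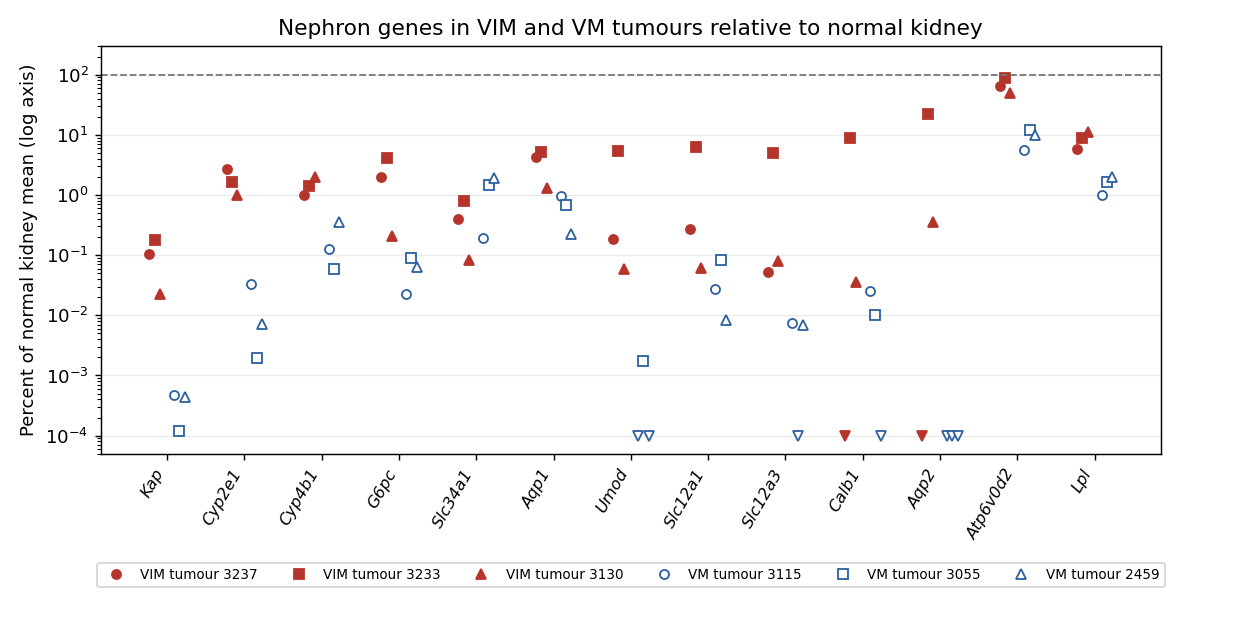
Levels of nephron genes and of Lpl in each tumour as percent of the mean of 5 normal kidneys (log axis, dashed line at 100%), with triangles pointing down at the lower edge for values listed at 0. VIM 3233 stands above the other tumours for Umod, Slc12a1, Slc12a3, Calb1 and Aqp2, whereas for Kap, Cyp2e1, Cyp4b1, Atp6v0d2 and Lpl all VIM tumours lie above all VM tumours.

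Epithelial junction and keratin genes had 0 passing genes of 18 and a median of 1.62 (1.01 to 2.28). Of the 18, 6 had an unadjusted p under 0.05, all higher in VIM (7.44% of all genes). VIM tumours were all above VM tumours for 5 genes (10.1% of all genes). The adhesion molecule Epcam had 377, 668 and 49.6 units in VIM and 6.66, 5.16 and 6.17 units in VM tumours (log2 difference 5.07 ± 0.94 (SE), adjusted p = 0.097). The E-cadherin gene Cdh1 had 2075, 3847 and 255 units in VIM and 329, 274 and 878 units in VM tumours. The keratin gene Krt8 had 3454, 2919.8 and 723 units in VIM and 301, 46.4 and 1578 units in VM tumours. The claudin gene Cldn7 had 635, 398 and 16.5 units in VIM and 51.9, 2.06 and 141 units in VM tumours. VIM 3130 was the lowest VIM tumour for all 4. For Epcam it was still above all VM tumours, for Krt8 and Cldn7 it lay between VM values, and for Cdh1 it was below all VM tumours. Of the EMT list (8 tested, 0 passing, 0 with an unadjusted p under 0.05, median 0.49, −0.13 to 0.97) vimentin had 1847, 2653 and 1129 units in VIM and 1309, 707 and 1238 units in VM tumours. The highest epithelial median was that without VIM 3130 and the lowest that without VM 3055.

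The cell cycle lists bear on the function of p16INK4a. DNA replication (30 genes, median −0.14) and mitosis (29 genes, median −0.37) had 0 passing genes each, and 0 and 1 gene with an unadjusted p under 0.05. The replication median was −0.53 without VM 3115 and 0.18 without VM 2459, and the mitosis median was −0.71 without VM 3115 and 0.02 without VM 2459, so that the sign of each rested on single libraries. Mki67, the proliferation marker, had 2179, 3965 and 1035 units in VIM and 1965, 3440.2 and 4281 units in VM tumours. The replication helicase gene Mcm2 had 537, 1292 and 343 units in VIM and 443, 1071 and 1080.2 units in VM tumours. VIM 3130 was the lowest for both genes. Both lists were well above normal kidney in all 6 tumours, with summed levels of 204% to 540% for replication and 1034% to 2711% for mitosis. Of 15 cyclins and kinases 0 passed, and the median was −0.37 (−0.57 to −0.06). VIM tumours were all above VM tumours for 1 gene (10.1% of all genes) and all below for 1 (6.36%). Of 13 genes of the RB and E2F list 0 passed, 1 was lower at an unadjusted p under 0.05, and the median was −0.25 (−0.40 to −0.18). The cyclin gene Ccnd1 had 1359, 1869.8 and 1324 units in VIM and 447, 91.2 and 647 units in VM tumours (log2 difference 2.33 ± 0.64 (SE), adjusted p = 0.21), all VIM above all VM tumours. Of the other inhibitors, Cdkn2b, which encodes p15INK4b beside the deleted locus, had 684, 342 and 589 units in VIM and 346, 319 and 236 units in VM tumours (log2 difference 0.80 ± 0.35 (SE), adjusted p = 0.43). The 10 genes of the MYC network and the 16 of ribosome biogenesis had 0 passing genes and 1 and 0 with an unadjusted p under 0.05 (medians −0.22, −0.31 to −0.14, and 0.11, −0.09 to 0.22), and nucleophosmin (Npm1) had 27354, 18808 and 31356 units in VIM and 18889.5, 14729.9 and 15642 units in VM tumours.

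The p53 pathway bears on the function of p19ARF. Of its 25 genes 0 passed, 4 had an unadjusted p under 0.05, all higher in VIM (7.44% of all genes), and the median was 0.51. VIM tumours were all above VM tumours for 2 genes (10.1% of all genes). The VM tumours were not alike here. Cdkn1a, which encodes the p53-induced inhibitor p21, had 2307, 2254 and 2563 units in VIM and 5929, 265 and 449 units in VM tumours. Phlda3, a p53 target that inhibits AKT, had 218, 184 and 576 units in VIM and 831, 9.28 and 21 units in VM tumours. Eda2r, a receptor induced by p53, had 510.4, 402 and 2249 units in VIM and 1848, 20.6 and 38.2 units in VM tumours. In all 3 genes VM 3055 and VM 2459 were below every VIM tumour while VM 3115 was above at least 2 of them. Trp53 had 866, 1487 and 786 units in VIM and 1230.4, 235 and 705 units in VM tumours, with VM 3055 lowest. The VIM values were close together for Cdkn1a. The list median was 0.71 without VM 3115, 0.28 without VIM 3130 and 0.10 without VM 3055, the last being the lowest of the 6 fits.

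**Figure D4:**
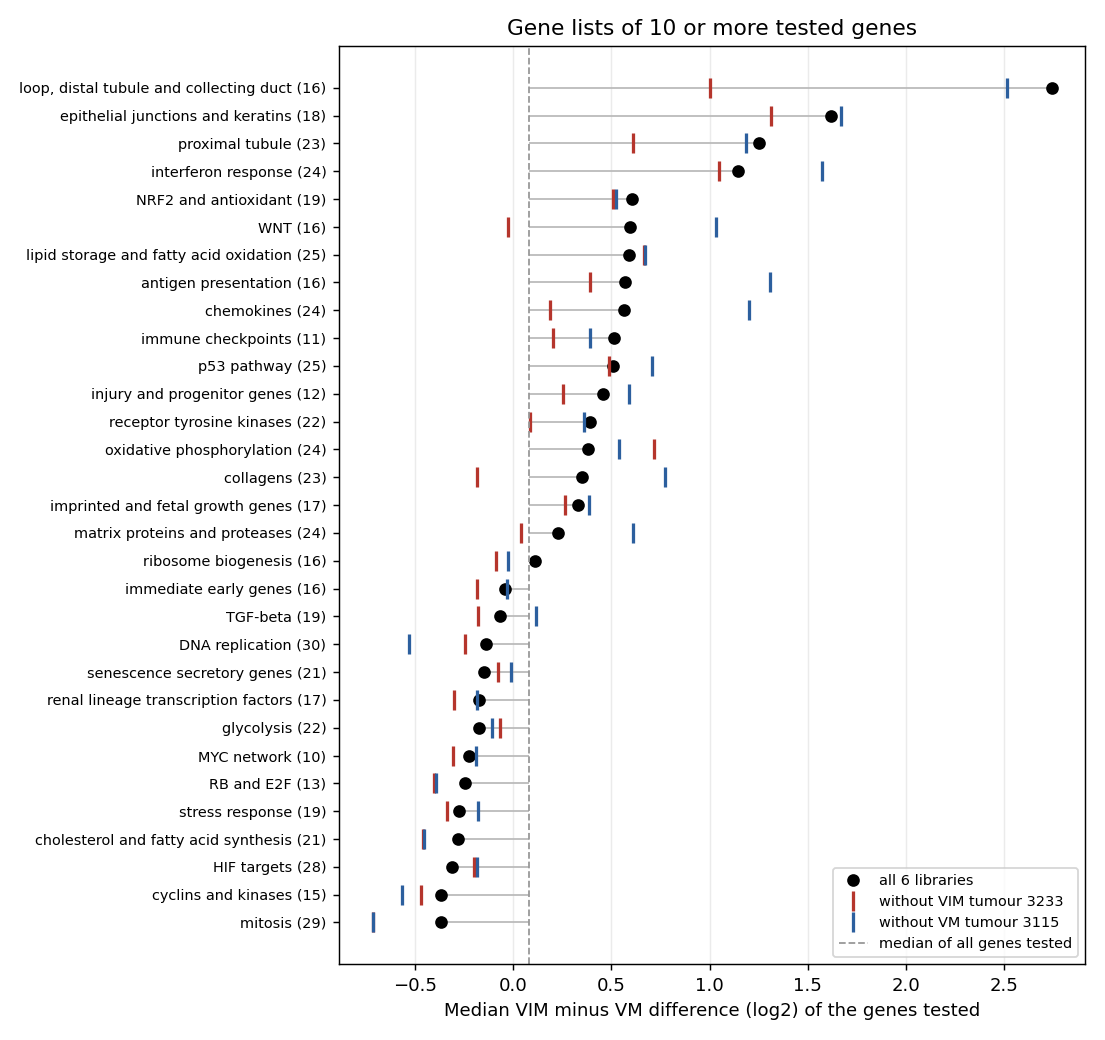
Median VIM minus VM difference on the log2 scale for each list with 10 or more tested genes (number tested in brackets), with all 6 libraries (black points), without VIM tumour 3233 (red) and without VM tumour 3115 (blue), and a dashed line at the median of all genes tested (0.08). Loop, distal tubule and collecting duct genes move from 2.74 to 1.0 without VIM 3233, and mitosis genes and cyclins and kinases lie lowest at −0.37.

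Of 23 collagens 1 passed, Col16a1, lower in VIM, with 5 at an unadjusted p under 0.05 in that direction (4.2% of all genes) and 1 in the other (7.44%). The median was 0.35, and it was −0.20 without VM 3055, −0.19 without VIM 3233 and 0.77 without VM 3115. The basement membrane collagen Col4a1 had 3228, 6346 and 2642 units in VIM and 15230.4, 11102 and 6147 units in VM tumours (log2 difference −1.42 ± 0.43 (SE), adjusted p = 0.26). Col27a1, of cartilage, had 81, 76.4 and 169 units in VIM and 475, 459 and 303 units in VM tumours (log2 difference −1.98 ± 0.43 (SE), adjusted p = 0.14). The matrix protein gene Fbln1 had 105, 117 and 299 units in VIM and 589.9, 1010.3 and 524 units in VM tumours (log2 difference −2.13 ± 0.47 (SE), adjusted p = 0.14). Of the 4 tested matrix remodelling genes that the study names, 0 passed and 1 had an unadjusted p under 0.05, higher in VIM. The cross-linking enzyme Loxl1 had 815, 832 and 701 units in VIM and 374, 192 and 245 units in VM tumours (log2 difference 1.58 ± 0.32 (SE), adjusted p = 0.12). Its relative Lox had 88.5, 148 and 226 units in VIM and 241, 39.2 and 62.9 units in VM tumours, with overlapping groups. Loxl2 had 2034, 2068 and 2858 units in VIM and 6158, 2839 and 2269 units in VM tumours, again with overlap. The study named these genes from its cell lines and not from the tumours.

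Genes of other cells were given by whole lists. The 12 macrophage markers had a median of 1.30 (0.89 to 1.98) and 0 passing genes, and sums of 12248 to 21318 units in VIM and 4859 to 15349 in VM tumours. Of these markers 6 had an unadjusted p under 0.05 higher in VIM (7.44% of all genes) and 1 lower (4.2%). VIM tumours were all above VM tumours for 2 (10.1% of all genes) and all below for 1 (6.36%). The scavenger receptor Msr1 had 497, 419 and 235 units in VIM and 132, 59.8 and 129 units in VM tumours (log2 difference 1.85 ± 0.48 (SE), adjusted p = 0.18), all VIM being above all VM tumours. The lysozyme gene Lyz2 had 11377, 4851 and 6531 units in VIM and 5539, 1325 and 2234 units in VM tumours. The complement gene C1qa had 2122, 1560.2 and 1226 units in VIM and 1688, 324 and 284 units in VM tumours. In both of these VM 3115 was at the level of VIM tumours. The interferon response list had 0 of 24 genes passing and a median of 1.15 (0.67 to 1.57). An unadjusted p under 0.05 was found for 6 of its genes, all higher in VIM (7.44% of all genes). VIM tumours were all above VM tumours for 6 (10.1% of all genes). The list member Ifit2 had 748, 518 and 573 units in VIM and 299.6, 275 and 209.6 units in VM tumours (log2 difference 1.22 ± 0.30 (SE), adjusted p = 0.16). The defining T cell genes Cd3d, Cd3e and Cd3g were at 0 in all VIM tumours and at or under the floor in all VM tumours. The plasma cell gene Igj had 20.7, 1224 and 55.1 units in VIM and 9.32, 2.06 and 1.23 units in VM tumours, highest in VIM 3233. The 12 endothelial markers, with 0 passing and 0 under an unadjusted p of 0.05, had a median of 0.11 (−0.47 to 0.85) and sums of 1188 to 2342 units in VIM and 874 to 5169 in VM tumours. Fibroblast markers summed to 1271 to 2719 units in VIM and 629 to 1867 in VM tumours. The part of these cells in the passing genes was not tested.

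Genes near the deleted locus were compared because a germline allele is inherited with its flanking chromosome. Of 53 tested genes within 10 Mb of Cdkn2a on chromosome 4, 1 passed, and that was Cdkn2a itself. Of the 52 neighbours 8 (15.38%) had an unadjusted p under 0.05, 3 higher and 5 lower in VIM, beside 11.6% of all genes. Cdkn2b, the nearest, was given above, and the next gene, Mtap, had 2000.0, 2266 and 2592 units in VIM and 2119, 2545 and 3375 units in VM tumours, with overlapping groups. Cntln, a centrosomal protein gene at −4.143 Mb from Cdkn2a, had 11.3, 16.3 and 34.9 units in VIM and 257, 391 and 136 units in VM tumours (log2 difference −3.61 ± 0.64 (SE), adjusted p = 0.087). The zinc finger gene Bnc2 had 69.7, 87.7 and 204 units in VIM and 387, 803 and 547 units in VM tumours (log2 difference −2.35 ± 0.49 (SE), adjusted p = 0.13). The ribosomal protein gene Rps6 had 154, 112 and 257 units in VIM and 413, 522 and 569.7 units in VM tumours (log2 difference −1.59 ± 0.38 (SE), adjusted p = 0.16). The scaffold gene Mpdz had 217, 252 and 222 units in VIM and 602, 546 and 419 units in VM tumours (log2 difference −1.17 ± 0.29 (SE), adjusted p = 0.17). For all 4 the VIM values lay below the VM values. The other lower neighbour, Jun at 5.775 Mb, is given below. Elsewhere on chromosome 4 lie 6 more passing genes (2210012G02Rik, Atp6v0d2, C630043F03Rik, Col16a1, Gm12824 and Orm1), so that 7 of its 967 tested genes passed, or 0.724%, the highest share of any chromosome. The chromosome was looked at after these genes were known.

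The same genotypes can be compared in cultured tumour cells, which grow without the tumour stroma. In VIM cells with Dox Cdkn2a had 30 ± 4.09 units against 3804 ± 359.7 in VM cells (SD, n = 4 each), a log2 difference of −6.95. Of the 42 genes 10 passed in cells in the same direction as in tumours and 7 in the opposite direction, beside 13% of all genes that passed in cells in either direction. Each cell genotype is 1 line, so a difference between lines and one between genotypes cannot be told apart. Lin28b had 30.4 ± 2.68 against 3 ± 2.04 units (log2 difference 3.13). Ccnb1ip1 had 315 ± 30.3 and Odz3 64.3 ± 5.91 units in VIM cells, and both were listed at 0 in all VM cell libraries. Tmem181a had 205 ± 12.5 against 5.29 ± 2.58 units. Cdkl1 (113 ± 8.16 against 475 ± 27.1), 2210012G02Rik (11.6 ± 6.22 against 312 ± 14.4), Slc2a2 and Prodh also kept the direction they had in tumours. Kif26a passed on low values, 0.173 ± 0.347 against 2.91 ± 1.82 units.

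Other genes of the 42 had a different pattern in cells. Hk2 was high in both lines, 3312 ± 91.2 units in VIM and 2776 ± 73.5 in VM cells, with a log2 difference of 0.25 (adjusted p = 0.46). A further 6 genes with at least 10 units passed in the direction opposite to that in tumours. Kcnk1 had 291 ± 26.5 units in VIM against 873 ± 25.5 in VM cells, and Col16a1 had 609 ± 57.5 against 265 ± 50.2. Sorcs2 had 211 ± 39.6 against 58.4 ± 18.7, and Lpl had 14.7 ± 2.98 against 38.5 ± 5.19. Cytip had 184 ± 10.9 against 556 ± 27.3, and Akr1c18 had 5.73 ± 1.06 against 82.9 ± 12.8. Of the 30 genes that were higher in VIM tumours 17 had a mean under 10 units in both lines, among them Kap, Cyp2e1, Cyp2a5 and Wfdc2, and thus give no comparison in culture. The test of the difference between the change in tumours and the change in cells passed for 36 of the 42 genes, beside 11.8% of all genes. The 42 had been selected for their difference in the same tumours, so that this count is no independent evidence.

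**Figure D5:**
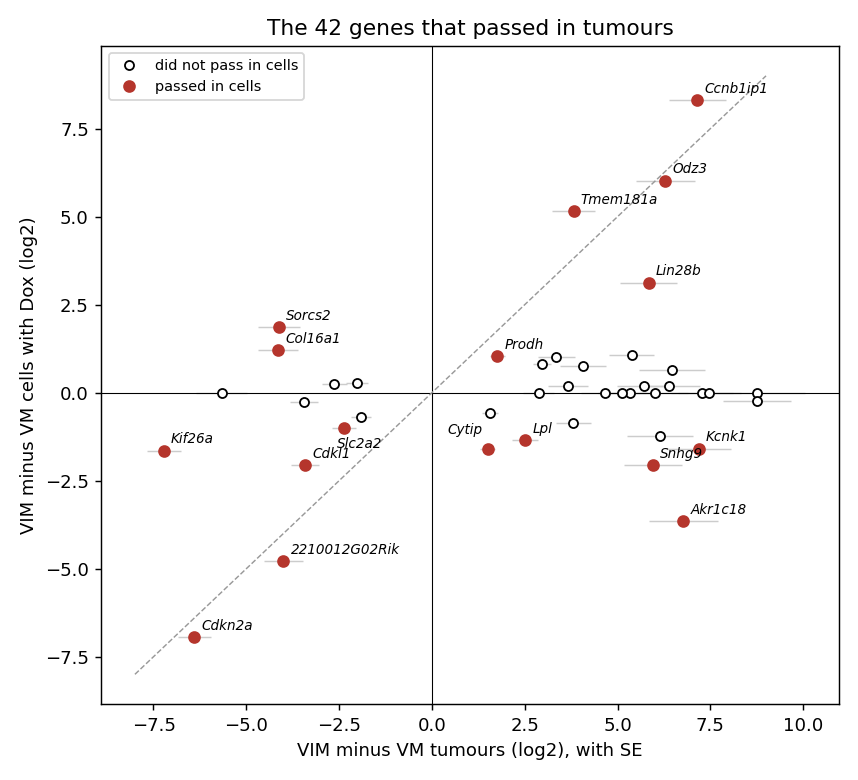
VIM minus VM difference in tumours (x axis, log2, bars of 1 SE) against that in cells with Dox (y axis, log2) for the 42 genes that passed in tumours, with filled points for the 17 that also passed in cells and a dashed line of equal differences. Cdkn2a, Ccnb1ip1 and Odz3 lie near the line, whereas Col16a1, Sorcs2, Kcnk1 and Akr1c18 lie in the quadrants of opposite direction.

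Spread within a genotype was large for some genes. Only genes averaging at least 50 units in the group were ranked here. Their median SD was 0.43 in VIM and 0.34 in VM tumours on the log2 scale. In VIM tumours the widest were Cfd, Pglyrp3, Calb1, Nr1h5 and Itm2a, with SDs from 4.78 to 5.67, and each was highest in VIM 3130 or VIM 3233. The peptidoglycan recognition gene Pglyrp3, for example, had 0, 610.3 and 0 units in VIM and 0 in all VM tumours. In VM tumours Sssca1, Tdrd1, Itm2a and Hoxc10 were among the widest, with SDs from 4.92 to 5.33. The homeobox gene Hoxc10 had 341, 104 and 73.4 units in VIM and 189, 601 and 0 units in VM tumours.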

How the data were processed

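Per the labels, RNA from kidney tumours, normal kidney and cultured tumour cells was sequenced (poly(A)-selected, paired ends). The authors aligned reads to mm9 with MapSplice, profiled the alignments with Picard 1.64, sorted reads with SAMtools, filtered them with UBU, estimated gene read counts with RSEM and the UCSC gene set, and rescaled every library so that its upper quartile was 1000. These scaled values are the deposited signal. Because they are not whole counts, a count test on recovered reads was not run. Genes above 0 in at least 3 of the 6 tumours were tested on log2(signal + 1) by limma 3.58.1 in R 4.3.3, with moderated variances, Benjamini-Hochberg adjustment and no covariate. A log2 fold change on this scale understates the change of low genes. The script was tested on simulated data. Reads per library were estimated from the smallest steps of low values, and 94.84% to 95.86% of low values came out whole within 0.02 reads. Intervals from the floor cover counting error only. Cells with Dox were fitted together with the tumours for the difference between materials. Positions are those of the mm9 annotation, found for 97.15% of symbols. Genes were named if engineered, if passing (on a list, or among the 15 largest rises or falls averaging 50 units or more in the group where they were higher), if among up to 6 others of a list with high levels or a defining role, if next to Cdkn2a or, within 10 Mb of it, passing, or if among the 5 most variable of a group, and others were chosen after their values were seen. One gene that the rule names is not reported here. The comparison, its members and the lists were chosen with earlier results of these data known. Each tumour is a separate mouse, but litters and batches are not given in the sources used here. The 4 libraries of a cell line are not stated to be separate cultures, so their p-values may measure technical spread. Alternatives were other pseudocounts, filters, scalings and variance models, leaving out each library, and, chosen after seeing the data, a voom fit on the estimated reads and weights by material.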

Additional observations from a re-analysis of the deposited data

Results flagged for a closer look

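For 27 of the 42 genes the VIM minus VM difference in tumours and that in cultured cells with Dox differed, by a test of the difference itself, with equal weights and with weights by material (adjusted p under 0.05 in limma). The values below are the difference in tumours minus that in cells, on the log2 scale. The 42 were selected for their difference in the same tumours, each cell genotype is 1 line, and a gene that is not detected in either line gives the tumour difference alone. Genes that passed in the opposite direction in cells were Akr1c18 (10.41), Kcnk1 (8.78), Snhg9 (8.01), Sorcs2 (−5.99), Col16a1 (−5.35), Lpl (3.86) and Cytip (3.09), of which Snhg9 was low in both lines. Cdkl1 (−1.35) passed in both materials in one direction, with the larger change in tumours. Hk2 (−2.88), Angpt1 (−3.17), Grid1 (−5.66) and Gm12824 (−2.30) were lower in VIM tumours and did not pass in cells.

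Of the genes that were higher in VIM tumours and did not pass in cells, those of tubule metabolism and transport were Cyp2a5 (8.76), Cyp2e1 (7.27), Kap (7.47), Mettl7a2 (8.98) and Atp6v0d2 (2.87). The remaining 10 were AB099516 (6.21), C630043F03Rik (3.31), Gm20554 (5.33), Ifi202b (4.68), Irx2 (5.52), Orm1 (7.37), Serpina3h (5.11), Sprn (6.01), Tesc (5.84) and Tmem20 (2.14). The share of stroma in tumours, growth on plastic and the choice of line move together with the material and cannot be told apart.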

How the results depend on the processing

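The count of 42 genes passing between VIM and VM tumours depended on the variance model and on single libraries, and the cause was not tested. It was 21 with a pseudocount of 0.1, 32 with a pseudocount of 10, 24 when genes averaging under 10 units were left out, 39 with no filter, 39 with TMM scaling, 28 with quantile scaling and 482 with MYC tumours and normal kidney in the fit. Without moderation of the variance it was 0, with 1546 genes at an unadjusted p under 0.05. Weights per library gave 2508, but they set 1 library (VIM 3237) at 35.47 and the others between 0.26 and 0.90, and a voom fit on estimated reads, chosen after seeing the data, gave 3. Leaving out 1 library gave 2 to 43. Of the 42 genes, 21 passed with the low pseudocount, 24 with the higher filter, 38 with TMM, 26 with quantile scaling and 38 in the larger fit. Quantile scaling moved the median of all genes from 0.08 to −0.02, and TMM moved it to −0.01. Kif26a and Cdkn2a passed in 15 of 16 alternatives, all but the fit without moderation. Over the 78 genes that passed or whose log2 difference is given, 1230 values were computed under alternatives, of which 840 kept their direction and their side of the threshold, 339 no longer passed, 51 newly passed and 0 changed sign. Of 50 tested genes given by their levels alone, 11 changed sign under at least 1 alternative (among them Plin2, Car9 and Postn) and 20 passed under at least 1.

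Genes whose difference between tumours and cells with Dox passed numbered 1927. The count was 1238 with the replicate number as a block, 898 with weights by material (chosen after seeing the data), 1609 with a pseudocount of 10, 1942 with TMM, 2501 with cells without Dox and 1557 to 2506 without 1 library. Samples of equal number did not deviate together (r between −0.0262 and 0.0559), so the replicate number does not pair them, and the tumours of the 2 genotypes share none. With 3 mice a group, 3 reads as the floor and bulk tissue, small changes and changes within rare cells were not detectable.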

Other observations

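Lists of transcription factors and of antioxidant genes held differences in both directions. Of 17 tested transcription factors of the renal lineage 0 passed in limma. An unadjusted p under 0.05 was found for 3 higher and 4 lower in VIM (7.44% and 4.2% of all genes). The same numbers had groups that did not overlap (10.1% of all genes higher and 6.36% lower in VIM). Lhx1, needed for the early nephron, had 11.3, 17.5 and 36.7 units in VIM and 103, 127 and 116 units in VM tumours (log2 difference −2.50 ± 0.60 (SE), adjusted p = 0.16). Sox9, a factor of injured and repairing tubule, had 39.5, 62.7 and 16.5 units in VIM and 268, 109 and 78.9 units in VM tumours. Foxi1, which specifies intercalated cells, had 15.1, 169 and 5.51 units in VIM and 1.33, 0 and 1.23 units in VM tumours, with VIM 3233 far above the rest. Sim1 had 215, 237 and 3.67 units in VIM and 2.66, 0 and 0 units in VM tumours. Wt1, of podocytes and their precursors, had 75.3, 102 and 58.7 units in VIM and 41.3, 16.5 and 24.7 units in VM tumours. Of 19 tested genes of the NRF2 and antioxidant list 0 passed, with a median of 0.61 (0.36 to 0.61 when each tumour in turn was left out). At an unadjusted p under 0.05, 5 were higher and 4 lower in VIM (7.44% and 4.2% of all genes). VIM tumours were all above VM tumours for 4 genes (10.1% of all genes) and all below for 2 (6.36%). Srxn1, which repairs oxidised peroxiredoxins, had 1619.6, 1536 and 1243 units in VIM and 734, 1029.9 and 543 units in VM tumours. Hmox1, the haem oxygenase, had 697, 767 and 622 units in VIM and 931, 1546 and 1076 units in VM tumours. The groups did not overlap for either, in opposite directions. The antioxidant enzyme gene Gpx3, one of the most abundant messages, had 134367, 90279 and 134629 units in VIM and 60422, 94353 and 24254 units in VM tumours, with overlapping groups.

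Some other signalling genes were separated between the genotypes without passing. Of 16 tested WNT genes 0 passed. VIM tumours were all above VM tumours for 3 of them (10.1% of all genes) and all below for 1 (6.36%). Of 22 tested receptor tyrosine kinases 0 passed, and VIM tumours were all above VM tumours for 3 (10.1% of all genes). The WNT ligand Wnt5a had 60.3, 50.1 and 60.6 units in VIM and 178, 169 and 127 units in VM tumours, all VM tumours being above all VIM tumours. Wnt11 had 24.5, 58.9 and 11 units in VIM and 1.33, 1.03 and 2.47 units in VM tumours. The WNT receptor Fzd2 had 15.1, 51.4 and 40.4 units in VIM and 4, 5.16 and 1.23 units in VM tumours. Both of these were low in VM tumours. The receptor tyrosine kinase Kit, a mast cell and progenitor marker, had 136, 375 and 198 units in VIM and 74.6, 29.9 and 50.6 units in VM tumours. Erbb3 had 529, 1016 and 327 units in VIM and 193, 306 and 239 units in VM tumours. Gdf15, a stress cytokine that p53 can induce, had 489.6, 371 and 387 units in VIM and 185, 84.5 and 125 units in VM tumours (log2 difference 1.72 ± 0.39 (SE), adjusted p = 0.14). The tubule injury marker Havcr1 (KIM-1) had 3603, 1645 and 477 units in VIM and 5619, 3782 and 16417 units in VM tumours, all VM tumours being above all VIM tumours. Lcn2, a second marker of injured tubule, had 785, 1214 and 266 units in VIM and 22.6, 438 and 90 units in VM tumours, with VIM 3130 between the VM values. The senescence-associated secretory list had 0 of 21 genes passing, 1 at an unadjusted p under 0.05 and a median of −0.15 (−0.44 to 0.41). Igfbp4, the 1 gene of that count, had 2104, 2476 and 2438 units in VIM and 3079.9, 3759 and 5504 units in VM tumours (log2 difference −0.78 ± 0.26 (SE), adjusted p = 0.31). Oxidative phosphorylation genes had 0 of 24 passing, 1 at an unadjusted p under 0.05 and a median of 0.38 (0.22 to 0.72). For 5 of them all VIM tumours were above all VM tumours (10.1% of all genes were so). Immediate early genes, which react to handling of tissue, had 0 of 16 passing and a median of −0.04 (−0.31 to 0.21). At an unadjusted p under 0.05, 2 were higher and 3 lower in VIM (7.44% and 4.2% of all genes). Jun had 1373, 1727 and 1101 units in VIM and 3583, 2485 and 1946 units in VM tumours (log2 difference −0.91 ± 0.29 (SE), adjusted p = 0.28). It lies 5.775 Mb from Cdkn2a and is among the lower neighbours counted above.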
